A study of Homo sapiens with 5 samples.

Results

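Intermediate filaments are rope-like polymers that give animal cells and their nuclei mechanical strength. Each cell lineage builds them from a characteristic set of proteins: neurofilaments in neurons, nestin in neural progenitors, vimentin in mesenchymal cells, keratins in epithelia, and lamins under the nuclear membrane of nearly every cell. HEK293 is an established line derived from human embryonic kidney cells and is known to carry neuronal, epithelial and mesenchymal filament genes side by side. The genes examined here were chosen by name, with no threshold on their levels: the neurofilament genes NEFL, NEFM and NEFH, the neuronal filament gene INA, nestin (NES), vimentin (VIM), the keratins KRT8 and KRT18, and the lamins LMNA and LMNB1. Of these 10 genes, 7 had a row among the 16677 genes of the count table, and all 7 passed the filter on low counts. NEFL, NEFM and INA were not analysed here, and nothing is read from that about their expression.

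Gene expression was measured by strand-specific messenger RNA sequencing, with single reads of 50 bases, in 5 libraries of HEK293 grown under basal conditions. The 2 Control libraries (Control_1 and Control_2) were wild type, and the 3 rs11607019 libraries (rs11607019_1 to rs11607019_3) carried the T-to-C change of that variant in SIRT3, the gene of a mitochondrial deacetylase. The labels give each library a name of its own but do not state if they are different clones or cultures of a single clone, so the tests measure only the spread between these libraries. The comparison asks how the filament genes differ with the variant.

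Library totals ran from 17122569 to 17596084 counts, and 16310 genes were tested. In the quasi-likelihood test of edgeR, 0 genes (0%) had an adjusted p under 0.05, 7.62% had an unadjusted p under 0.05, and DESeq2 called 31 (0.206%). The groups did not overlap at 24.8% of tested genes, with the rs11607019 libraries above both Control libraries at 11.8% and below both at 13%. SIRT3 stood at 28.9 and 29.3 CPM (the count scaled to the total and composition of its library) in the Control libraries and at 26.5, 15.8 and 30.2 CPM in rs11607019_1, rs11607019_2 and rs11607019_3. Libraries also differed in how levels, taken relative to the mean of each gene over the 5 libraries, followed GC content and length. The Spearman correlation with GC content ran from −0.530 in Control_1 to 0.469 in rs11607019_3. With the length of the longest transcript it ran from −0.286 in rs11607019_3 to 0.366 in rs11607019_1. Both were taken across 10854 genes, which are not independent replicates.

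NEFH encodes the heavy neurofilament subunit, whose long tail carries lysine-serine-proline repeats that are phosphorylated in axons. The gene (ENSG00000100285) lies on the forward strand of chromosome 22, from 29480230 to 29491390 in GENCODE release 29 (GRCh38). The results turn most on this gene, so a stretch of 150 bases of its tail-coding repeat is shown, from chr22:29489750-29489899, forward strand, in the coding sequence. Capitals mark the 9-base unit AAGTCCCCA, which encodes lysine-serine-proline, occurs 16 times in the reading frame of the transcript and 5 times in this stretch.
NEFH: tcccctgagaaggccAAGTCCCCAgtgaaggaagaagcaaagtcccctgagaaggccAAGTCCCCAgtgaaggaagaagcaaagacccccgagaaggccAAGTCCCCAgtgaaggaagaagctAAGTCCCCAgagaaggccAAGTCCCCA
Few windows of read length recur exactly. Windows that hold a repeat unit beside unique bases were not counted. Of the 3734 windows of 50 bases in the NEFH transcript, 141 (3.78%) recur within the transcript and 99 (2.65%) are found in transcripts of other genes.

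The keratins have many processed copies elsewhere in the genome, and the next stretches show examples. Each pair is a keratin coding stretch of 90 bases and the matching stretch of a counted copy, taken within single exons along an ungapped alignment, where the number of differing bases was lowest above 0 (other stretches can be closer or identical). Capitals mark the bases that differ: 5 for KRT18 (chr12:52951481-52951570, forward strand) and KRT18P31 (chr5:36885860-36885949, forward strand), and 2 for KRT8 (chr12:52898730-52898819, reverse strand) and KRT8P33 (chr5:123401193-123401282, reverse strand).
KRT18: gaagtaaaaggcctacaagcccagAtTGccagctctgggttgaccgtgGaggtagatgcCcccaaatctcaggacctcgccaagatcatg
KRT18P31: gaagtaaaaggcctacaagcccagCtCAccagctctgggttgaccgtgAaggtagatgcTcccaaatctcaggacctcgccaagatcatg
KRT8: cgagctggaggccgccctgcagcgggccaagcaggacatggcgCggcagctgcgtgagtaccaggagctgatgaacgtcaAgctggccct
KRT8P33: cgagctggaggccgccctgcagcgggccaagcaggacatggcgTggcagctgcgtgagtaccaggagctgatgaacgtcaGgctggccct
Exactly shared windows were frequent for both keratins. In the transcript with the longest coding sequence, 677 of 1638 windows of KRT8 (41.3%) and 481 of 1513 windows of KRT18 (31.8%) occur in transcripts of other genes, against 0 for NES, VIM, LMNA and LMNB1. KRT8P3 alone holds 395 of the KRT8 windows, KRT8P33 holds 128, and KRT18P11 holds 151 of the KRT18 windows. The count table has 5 KRT8 copies, whose summed counts equal 6.70% of the KRT8 counts, and 3 KRT18 copies at 3.68% of the KRT18 counts. The most counted copy was KRT8P3, with a mean of 164 counts a library. Keratin levels below are therefore uncertain by the reads that such copies could share.

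None of the 7 genes differed between the groups beyond the spread of the libraries. Adjusted p-values in edgeR's quasi-likelihood test ran from 0.745 for VIM to 1.000 for LMNA, and 0 of the 7 had an unadjusted p under 0.05, beside 7.62% of tested genes (4.11% higher and 3.51% lower). The log2 fold change was above 0 for 4 genes and below 0 for 3. Their median was 0.09, beside 0.0030 over all tested genes. The groups did not overlap for NEFH, where the rs11607019 libraries were lower, nor for LMNB1, where they were higher, beside 13% of tested genes lower and 11.8% higher without overlap.

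**Figure D1:**
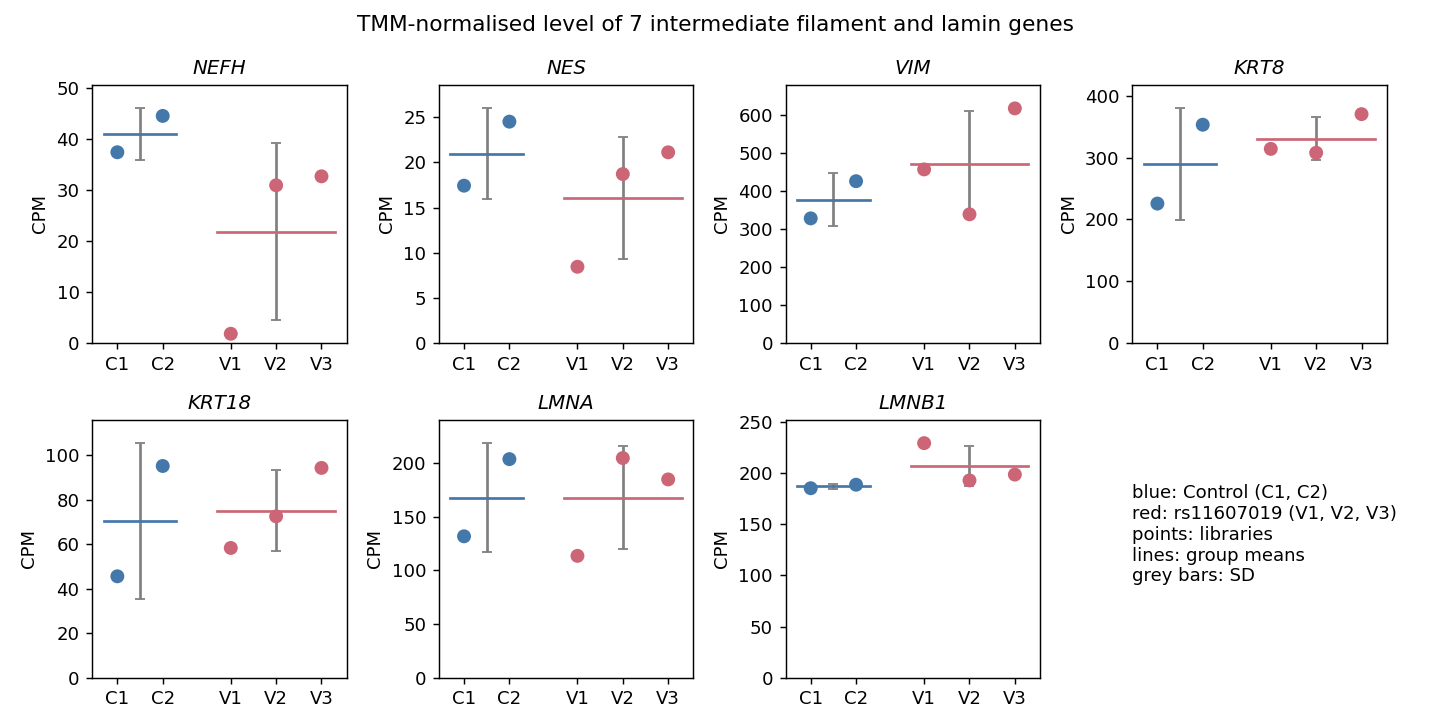
TMM-normalised CPM of the 7 genes in each library, with Control_1 and Control_2 in blue (C1, C2) and rs11607019_1 to rs11607019_3 in red (V1 to V3); lines are group means, grey bars are SD (n = 2 and n = 3) and each axis starts at 0. NEFH stands at 1.79 CPM in V1, while the LMNB1 points stay between 185 and 229 CPM.

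The neuronal filament gene NEFH separated a single library from the rest. NEFH held 641 and 780 counts in Control_1 and Control_2, and 31, 538 and 578 counts in rs11607019_1, rs11607019_2 and rs11607019_3. As levels these were 37.4 and 44.5 CPM in the Control libraries. The rs11607019 libraries stood at 1.79, 30.9 and 32.6 CPM. Both Control libraries thus lay above each rs11607019 library, and rs11607019_1 lay far below the other 4. The 95% Wilson interval of NEFH in rs11607019_1 was 1.26 to 2.54 CPM, and the lowest bound among the other libraries was 28.4 CPM in rs11607019_2. These intervals cover counting error only.

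For NEFH the mean of the other 4 libraries was 20.3 times the level in rs11607019_1, and the next lowest library was 17.2 times that level. Of 9841 tested genes with at least 10 CPM in each of the other 4 libraries, NEFH was the 1 gene that low in rs11607019_1. That comparison was set after the values of NEFH were seen, so it is a description only. Over all 16310 tested genes, 2, NEFH included, had a gap at least as wide between their lowest and next lowest library. The group means of NEFH were 40.9 ± 5.04 CPM (SD, n = 2) for Control and 21.8 ± 17.3 CPM (SD, n = 3) for rs11607019. Its log2 fold change was −0.91 (SE 0.98, 95% confidence interval −3.35 to 1.53; adjusted p 0.837). Without rs11607019_1 it was −0.37, with an adjusted p of 0.671. The coefficient of variation between libraries of a group, as edgeR estimated it for NEFH, was 74.6%, where the trend for genes of that abundance was 18.5%.

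The genes beside NEFH did not share this level in rs11607019_1. The adjacent tested genes AP1B1, an adaptor subunit of vesicle coats, and THOC5, a subunit of an mRNA export complex, had log2 ratios of 0.08 and 0.19 in rs11607019_1 against the mean of the other 4 libraries. The ratio of NEFH was −4.34. Over the 10 nearest tested genes, 5 on each side, the ratios ran from −0.56 to 0.19.

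**Figure D2:**
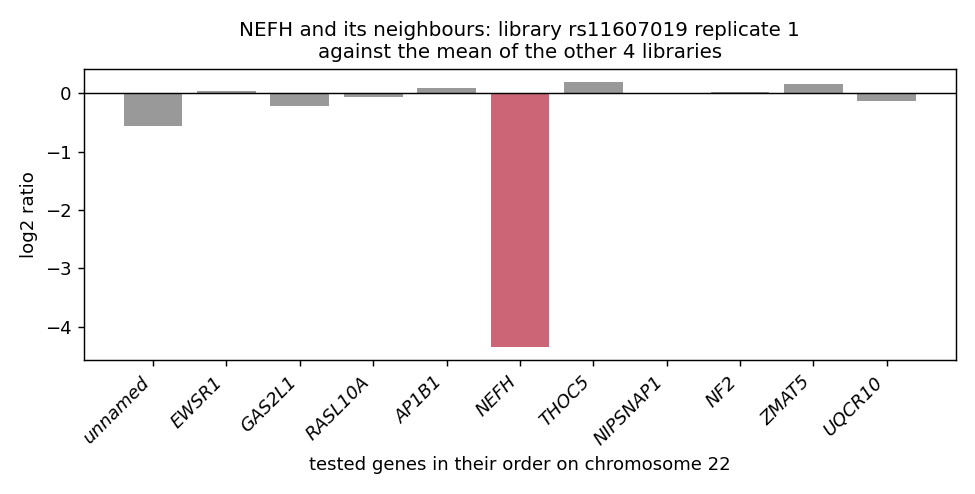
Log2 ratio of the level in rs11607019_1 to the mean of the other 4 libraries, for NEFH (red) and the 5 nearest tested genes on each side (grey), in their order on chromosome 22. NEFH stands at −4.34 and each neighbour lies between −0.56 and 0.19.

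Among genes with a row, few others were set apart in a single library to this extent. The lowest count in any library was 3, so genes that fell lower in a library may be missing from this number. Chosen after their values were seen, 8 tested genes had a lowest library at least 8-fold below the next lowest, and in 6 of them that library was rs11607019_1: NEFH, TNFAIP2, SULT1A1, CACNG8, CNTN1 and FAAH2. The profile of NEFH over the 5 libraries was compared with 10864 genes by the root mean square difference of centred log2 CPM. The closest was TNFAIP2 (chromosome 14, difference 0.30), with 19.9 and 19.2 CPM in the Control libraries and 1.16, 24.3 and 21.9 CPM in the rs11607019 libraries. Next was SULT1A1, a sulfotransferase gene on chromosome 16 (difference 0.34), with 102 and 177 CPM against 10.8, 113 and 124 CPM. In both genes rs11607019_1 was the single low library, which follows from choosing them by likeness to NEFH. TMEM200B followed at 0.73.

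NES encodes nestin, a large filament protein of neural progenitors that assembles with vimentin. NES (ENSG00000132688, reverse strand of chromosome 1, 156668763 to 156677397) stood at 17.4 and 24.5 CPM in Control_1 and Control_2. In rs11607019_1, rs11607019_2 and rs11607019_3 it stood at 8.44, 18.7 and 21.1 CPM. Here too rs11607019_1 was lowest, and its Wilson interval of 7.18 to 9.92 CPM lay below those of the other 4 libraries. The rs11607019_2 and rs11607019_3 values fell between the Control values, so the groups overlapped.

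The log2 fold change of NES was −0.38 (SE 0.35, 95% confidence interval −1.17 to 0.40; adjusted p 0.799), and without rs11607019_1 it was −0.07. Group means of NES were 21.0 ± 5.02 CPM (SD, n = 2) and 16.1 ± 6.74 CPM (SD, n = 3). The genes with the profile closest to NES were PCOLCE (difference 0.11), TRIM47 (0.12) and NRBP2 (0.16). PCOLCE, which encodes an enhancer of procollagen processing, stood at 10.8 and 13.4 CPM in the Control libraries and 5.43, 9.70 and 12.1 CPM in the rs11607019 libraries.

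VIM encodes vimentin, the main filament protein of mesenchymal cells and of many cultured lines. VIM (ENSG00000026025, forward strand of chromosome 10, 17228259 to 17237593) stood at 328 and 426 CPM in the Control libraries and at 457, 339 and 618 CPM in rs11607019_1, rs11607019_2 and rs11607019_3. The highest library was rs11607019_3, and rs11607019_2 lay between the Control libraries. Group means of VIM were 377 ± 69.4 CPM (SD, n = 2) and 472 ± 140.2 CPM (SD, n = 3). The log2 fold change was 0.32 (SE 0.24, 95% confidence interval −0.21 to 0.85; adjusted p 0.745). VIM was 0.08 without rs11607019_3 and 0.52 without Control_2. Its transcript has the lowest GC content of the 7 genes, at 46.9%, and the fit corrected for GC content and length gave 0.36.

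Nestin needs a partner to form filaments, and the ratio of VIM to NES was taken per kilobase of exon within each library. It was 20.3 and 18.7 in the Control libraries and 58.4, 19.5 and 31.5 in rs11607019_1, rs11607019_2 and rs11607019_3. The high value of rs11607019_1 came with the lowest NES level, and that of rs11607019_3 with the highest VIM level. The groups overlapped, and these ratios are given as a description with no test.

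KRT8 and KRT18 encode the obligate keratin pair of simple epithelia, a basic and an acidic chain that polymerise together. The genes are neighbours on chromosome 12. KRT8 (ENSG00000170421) spans 52897187 to 52949954 on the reverse strand and KRT18 (ENSG00000111057) spans 52948871 to 52952901 on the forward strand. The annotated genes overlap by 1084 bases, and the strand setting of the counting is not given in the sources used here.

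KRT8 stood at 226 and 353 CPM in Control_1 and Control_2, and at 314, 308 and 371 CPM in rs11607019_1, rs11607019_2 and rs11607019_3. KRT18 stood at 45.5 and 95.1 CPM in the Control libraries and at 58.3, 72.4 and 94.2 CPM in the rs11607019 libraries. For both keratins Control_1 was the lowest library, while Control_2 and rs11607019_3 were the highest. The Control libraries alone spanned nearly the whole range, with KRT18 2.09 times as high in Control_2 as in Control_1. A Control difference of that size or larger was found for 5.65% of tested genes.

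The log2 fold change was 0.19 for KRT8 (SE 0.20, 95% confidence interval −0.25 to 0.63; adjusted p 0.821). For KRT18 it was 0.09 (SE 0.30, 95% confidence interval −0.59 to 0.77; adjusted p 0.952). The sign depended on the Control library kept. Without Control_1 the values were −0.10 for KRT8 and −0.34 for KRT18, and without Control_2 they were 0.55 and 0.72. The KRT8 to KRT18 ratio per kilobase was steadier than either gene, at 2.32 and 1.74 in the Control libraries and 2.52, 1.99 and 1.84 in the rs11607019 libraries. Genes with the profile closest to KRT18 were ITM2C (difference 0.09), PPP1R3F (0.10) and EHBP1L1 (0.11).

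LMNA encodes lamins A and C, the A-type lamins that stiffen the nucleus, and LMNB1 encodes lamin B1, which stays attached to the inner nuclear membrane through its lipid tail. LMNA (ENSG00000160789, forward strand of chromosome 1, 156082573 to 156140089) stood at 132 and 204 CPM in the Control libraries and at 114, 205 and 185 CPM in rs11607019_1, rs11607019_2 and rs11607019_3. The low libraries were Control_1 and rs11607019_1, 1 from each group. Group means of LMNA were both 168 CPM, with an SD of 50.9 (n = 2) for Control and 47.9 (n = 3) for rs11607019. The log2 fold change was −0.00051 (SE 0.26, 95% confidence interval −0.59 to 0.59; adjusted p 1.000). Gene counts cannot separate lamin A from lamin C.

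LMNB1 was the steadiest of the 7 genes. LMNB1 (ENSG00000113368, forward strand of chromosome 5, 126776623 to 126837020) stood at 185 and 189 CPM in the Control libraries and at 229, 193 and 199 CPM in rs11607019_1, rs11607019_2 and rs11607019_3. Each rs11607019 library lay above both Control libraries, a pattern shared by 11.8% of tested genes. The highest library was 1.24 times the lowest. Group means of LMNB1 were 187 ± 2.42 CPM (SD, n = 2) and 207 ± 19.6 CPM (SD, n = 3). The log2 fold change was 0.15 (SE 0.14, 95% confidence interval −0.17 to 0.47; adjusted p 0.815). Without rs11607019_1 the value was 0.07.

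The balance of the lamin genes differed most in rs11607019_1. The LMNA to LMNB1 ratio per kilobase was 0.370 and 0.561 in Control_1 and Control_2 and 0.257, 0.552 and 0.484 in rs11607019_1, rs11607019_2 and rs11607019_3. The library rs11607019_1 thus had the lowest LMNA and the highest LMNB1 level at once. The groups overlapped, since Control_1 lay below rs11607019_2 and rs11607019_3.

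**Figure D3:**
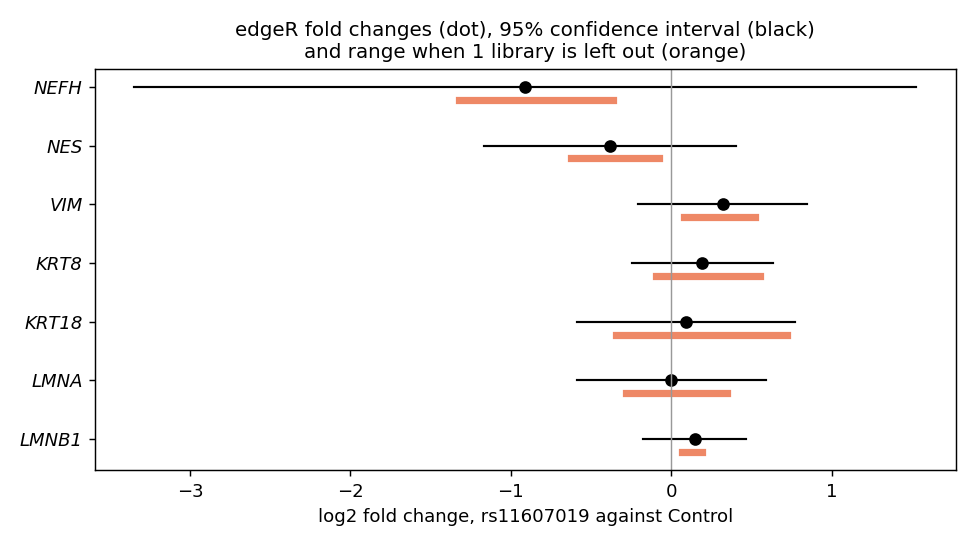
Log2 fold change of rs11607019 against Control for each gene (dots) with its 95% confidence interval from edgeR (black lines) and the range over the 5 fits that each left out 1 library (orange bars). Each black line crosses 0, and the orange bars of KRT8, KRT18 and LMNA cross 0 as well.

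The spread within the Control group was as large as the group difference for most of these genes. Each of the 7 was higher in Control_2 than in Control_1, where 47.2% of tested genes were. For 5 genes the fold between the Control libraries was larger than the fold between the group means, NEFH and LMNB1 being the exceptions. Control_1 was the lowest library for 4 genes (VIM, KRT8, KRT18 and LMNB1) and rs11607019_1 for 3 (NEFH, NES and LMNA). The GC correlation was −0.530 in Control_1 and −0.122 in rs11607019_1. The transcripts of VIM, LMNB1, KRT18 and KRT8 have GC contents of 46.9%, 51.1%, 55.7% and 56.2%. Those of NEFH, NES and LMNA have 57.8%, 59.3% and 61.5%. The 4 genes lowest in Control_1 were thus those with the least GC of the 7. The part of GC content in the levels was not tested beyond the corrected fit. In that fit the log2 fold change was −1.04 for NEFH, −0.55 for NES and −0.13 for LMNA. It was 0.36 for VIM, 0.14 for KRT8, 0.09 for KRT18 and 0.09 for LMNB1.

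Levels per kilobase of exon ordered the 7 genes within HEK293. Among these 7, VIM was highest at 84.1 ± 22.7 CPM per kilobase (SD over the 5 libraries). LMNB1 followed at 54.8 ± 4.87 and KRT8 at 45.7 ± 8.15 CPM per kilobase, each above the next gene in 5 of 5 libraries. LMNA at 24.0 ± 6.07 and KRT18 at 22.7 ± 6.79 CPM per kilobase did not differ beyond their spread, LMNA being higher in 2 of 5 libraries. NEFH (7.78 ± 4.31) was above NES (3.25 ± 1.08) in 4 libraries, and in rs11607019_1 NES was higher.

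With the length of the longest transcript in place of the whole exon set, KRT8 stood at 109.8 and LMNB1 at 57.3 CPM per kilobase, so these genes changed places. LMNA then stood at 52.6 CPM per kilobase and was above LMNB1 in 3 of the libraries. It was also above KRT18, at 35.0 CPM per kilobase, in 5 of 5 libraries. The places of VIM at the top and of NEFH and NES at the bottom were the same with both lengths.

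**Figure D4:**
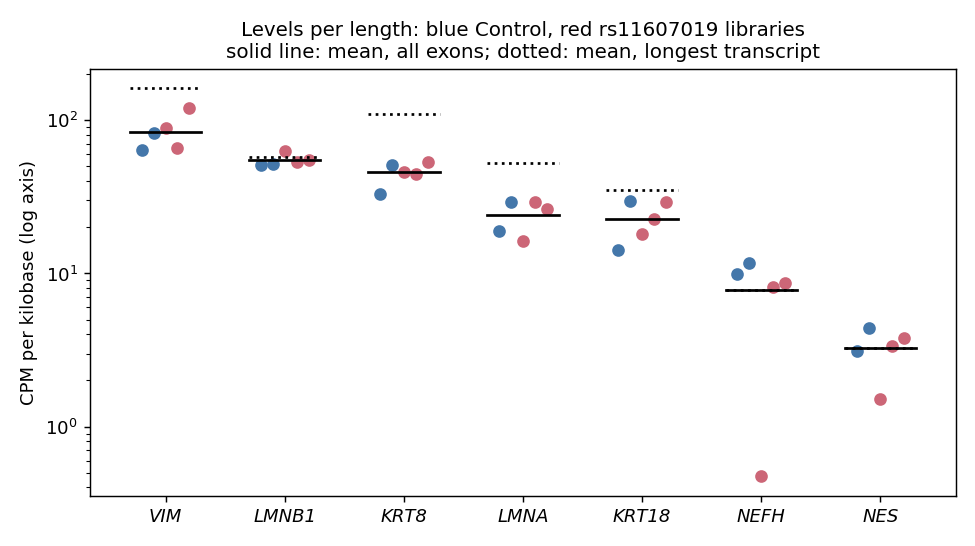
CPM per kilobase on a log axis for the 7 genes, with Control libraries in blue and rs11607019 libraries in red. Solid lines are means over the 5 libraries with all exons as the length and dotted lines are means with the longest transcript; VIM is highest with both, and KRT8 moves from 45.7 to 109.8.

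Other filament genes were looked at from a list of 42, of which 6 had rows in the table. None of the 6 had an unadjusted p under 0.05, beside 7.62% of tested genes. LMNB2, the other B-type lamin, stood at 472 and 420 CPM in the Control libraries and 455, 517 and 488 CPM in the rs11607019 libraries. Its mean per kilobase of exon was 86.6 CPM, above the 84.1 of VIM. This order is for the whole exon set only. With the longest transcript VIM stood at 163 CPM per kilobase, and LMNB2 was not taken with that length. SYNM, whose product synemin joins vimentin filaments, was without overlap higher in the rs11607019 libraries, beside 11.8% of tested genes. SYNM stood at 60.3, 54.5 and 57.7 CPM there against 46.8 and 47.0 CPM, with an adjusted p of 0.681. KRT10, a keratin best known from epidermis, was without overlap lower, beside 13% of tested genes. KRT10 stood at 59.2, 61.5 and 63.1 CPM against 68.7 and 68.8 CPM, with an adjusted p of 0.794. Its mean per kilobase of exon was 30.0 CPM, above the 24.0 of LMNA and the 22.7 of KRT18. With the longest transcript LMNA stood at 52.6 and KRT18 at 35.0 CPM per kilobase, and KRT10 was not taken with that length. PRPH (peripherin, a neuronal filament gene), GFAP (an astrocyte filament gene) and BFSP1 (a lens filament gene) reached at most 3.90, 2.17 and 8.73 CPM in any library.

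Linkers tie filaments to junctions and to other parts of the cytoskeleton. Of 15 listed plakin and desmosome genes, 12 were tested, 0 passed the adjusted threshold, and 2 had an unadjusted p under 0.05, both higher in rs11607019, beside 4.11% of tested genes. DSP, desmoplakin, which anchors keratin and vimentin filaments at desmosomes, stood at 245 and 254 CPM in the Control libraries and at 373, 326 and 308 CPM in the rs11607019 libraries. Its log2 fold change was 0.43 (SE 0.14; adjusted p 0.616). DSC3, a desmosomal cadherin gene, stood at 77.6 and 69.6 CPM against 115, 79.9 and 101 CPM, with an adjusted p of 0.649. The median log2 fold change of the 12 genes was 0.19, beside 0.0030 over all tested genes. Of the 12, 10 were above 0, where 50.5% of all tested genes were above 0. No test was made of the list as a whole.

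Partners of the lamins at the nuclear envelope were spread to both sides. All 20 listed genes were tested, 0 passed the adjusted threshold, and 1 in each direction had an unadjusted p under 0.05, beside 4.11% of tested genes higher and 3.51% lower. NRM, which encodes nurim of the inner nuclear membrane, stood at 32.3 and 35.3 CPM in the Control libraries and 43.8, 43.3 and 50.7 CPM in the rs11607019 libraries (adjusted p 0.621). TMPO, which encodes the lamina-associated LAP2 proteins, stood at 333 and 262 CPM against 243, 226 and 224 CPM (adjusted p 0.627). The median was 0.11.

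Among 20 kinases and other regulators of filaments, 0 passed the adjusted threshold and 1 in each direction had an unadjusted p under 0.05, beside 4.11% of tested genes higher and 3.51% lower. CDK1, the mitotic kinase that phosphorylates lamins and vimentin, stood at 257 and 180 CPM in the Control libraries and 143, 141 and 154 CPM in the rs11607019 libraries. Its log2 fold change was −0.58 (SE 0.17; adjusted p 0.616). TRIM32, a ubiquitin ligase gene, stood at 22.6 and 23.9 CPM against 27.9, 35.4 and 35.4 CPM (adjusted p 0.616). The median was −0.07, with 14 genes below 0, where 49.5% of all tested genes were below 0.

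Marker lists were read beside the filament genes to describe the cells. Of 20 neuronal markers 11 had rows, led per length by UCHL1, a neuronal ubiquitin hydrolase gene, and ENO2, the neuronal enolase gene. UCHL1 stood at 606 and 680 CPM in the Control libraries and 429, 730 and 761 CPM in the rs11607019 libraries. Its lowest library was rs11607019_1, the library low in NEFH, but rs11607019_1 was lowest for 3 of the 11 neuronal markers and rs11607019_2 for 5. The summed level of the neuronal list was 298 and 335 CPM per kilobase in the Control libraries and 220, 348 and 377 in the rs11607019 libraries, most of it from UCHL1. Without UCHL1 the sums were 32.5 and 37.5 against 32.4, 28.3 and 43.3 CPM per kilobase, and rs11607019_1 was no longer lowest. That list, which does not hold NEFH, had 0 of 11 genes with an unadjusted p under 0.05 and a median log2 fold change of 0.02. Of 10 neural progenitor markers 3 had rows, MSI1 and SOX2 leading, with 0 of 3 under that threshold.

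Epithelial markers varied between libraries of the same group. Of 15 listed genes 9 had rows, 0 had an unadjusted p under 0.05, and the median log2 fold change was −0.06. EPCAM, an epithelial adhesion gene, stood at 53.1 and 208 CPM in Control_1 and Control_2 and at 119, 168 and 102 CPM in the rs11607019 libraries. Control_1 was lowest for EPCAM, as it was for KRT8 and KRT18, but it was lowest for 2 of the 9 epithelial markers, while rs11607019_1 and rs11607019_3 were each lowest for 3. ESRP2, an epithelial splicing regulator gene, stood at 60.2 and 67.4 CPM against 60.5, 75.9 and 29.4 CPM. The summed list was 41.0 and 109 CPM per kilobase in the Control libraries and 65.7, 96.3 and 57.9 in the rs11607019 libraries. Without EPCAM it was 19.9 and 26.3 against 18.3, 29.8 and 17.2 CPM per kilobase, and Control_1 was no longer lowest.

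Of 20 mesenchymal and fibroblast markers 11 had rows, 0 passed the adjusted threshold, and 4 had an unadjusted p under 0.05, each with a higher rs11607019 mean, beside 4.11% of tested genes. FN1, fibronectin, stood at 293 and 360 CPM in the Control libraries and at 718, 330 and 744 CPM in the rs11607019 libraries, with a log2 fold change of 0.87 (SE 0.32; adjusted p 0.616). Its low rs11607019 library was rs11607019_2, which was also the lowest of that group for VIM. SPARC, a matrix protein gene, stood at 71.1 and 221 CPM against 131, 74.97 and 159 CPM, with Control_1 and rs11607019_2 low. ACTA2, smooth muscle actin, stood at 3.73 and 5.53 CPM against 5.20, 13.7 and 11.8 CPM (adjusted p 0.616). SNAI2 reached at most 2.99 CPM and SNAI1, named after its values were seen, at most 2.49 CPM, with adjusted p-values of 0.616 and 0.643. The median of the 11 genes was 0.06, with 8 above 0 and 3 below 0, where 49.5% of all tested genes were below 0. TWIST1, also named after its values were seen, had the lowest log2 fold change of the list, at −0.48. The summed list was 58.5 and 93.1 CPM per kilobase against 90.3, 60.6 and 110.

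Few kidney and adrenal lineage genes had rows. Of 11 listed kidney genes 4 had rows: PAX2, LHX1, SIX2 and GATA3. They had 0 with an unadjusted p under 0.05 and a median log2 fold change of −0.16. GATA3 stood highest per length, at 41.4 and 54.3 CPM in the Control libraries and 40.1, 44.2 and 48.1 CPM in the rs11607019 libraries. For 4 of these 4 genes rs11607019_1 was the lowest library, though for GATA3 it was close to Control_1 (40.1 and 41.4 CPM). The share of all tested genes lowest in rs11607019_1 was not counted, so nothing is read from this about the lineage. SIX2, a nephron progenitor gene, stood at 9.33 and 11.2 CPM against 4.85, 15.3 and 6.66 CPM. Of 10 adrenal and chromaffin genes, GATA2 and NR5A1 had rows, and NR5A1 stayed at or under 1.02 CPM. The 8 blood and endothelial markers were not analysed here. The part of other cell types in the filament levels was not tested.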

How the data were processed

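RNA was measured in 2 Control and 3 rs11607019 libraries of HEK293, grouped by their titles. The authors deposited raw counts per Ensembl gene, as whole numbers. HISAT2, SAMtools, HTSeq and build hg38 are named per the submitters' processing notes; versions, annotation and strand setting are not given in the sources used here. The lowest count in any library was 3, for a table whose filter is not given in the sources used here. Symbols came from a gene name table (16627 of 16677 identifiers); positions and lengths came from GENCODE release 29 (16565 identifiers).

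Genes were filtered with filterByExpr (16310 kept), scaled by TMM and tested with edgeR 4.0.16 (robust quasi-likelihood F test, R 4.3.3), with all 5 libraries in a single model of group. P-values are two-sided, with Benjamini-Hochberg adjustment over all tested genes and a threshold of 0.05. SE were derived from the same fits. The test was checked on simulated counts. It recovered 6% of genes given a 1.5-fold change, 48% at 2-fold, 86% at 4-fold and 90% at 8-fold. Among the 128 genes called there, 13 were called wrongly. Where the simulation changed none of the genes, 4 were called and 4.83% had an unadjusted p under 0.05. A lack of calls for the filament genes thus says little about changes of 2-fold or less. For NEFH it says little about larger changes too. The coefficient of variation of NEFH was 74.6%, where the common value edgeR estimated was 19.8%. The confidence interval of its log2 fold change ran from −3.35 to 1.53. Alternatives were RLE and upper-quartile scaling, no filter, at least 10 counts in every library, DESeq2 1.42.0, limma-voom (limma 3.58.1), the replicate number as a block, a spline correction for GC content and length (5 degrees of freedom), leaving out each library, and another length. Where 1 Control library was left, it was assumed to vary like the other group.

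The genes and lists were chosen with earlier results of these data known. Named genes are the 10 members, from each list the 2 smallest unadjusted p under 0.05, the 2 highest markers per length, and the 3 closest profiles (genes with a mean log2 CPM above 3) of the 3 members with the widest range. Lists were described by counts and medians, with no set test. A share of 50-base windows was counted by exact match to GENCODE transcripts. Counts give Wilson intervals of 95%, for counting error only.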

Additional observations from a re-analysis of the deposited data

How the results depend on the processing

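Of 91 log2 fold changes of the 7 genes under the alternatives, 83 kept their direction, 8 reversed, and 0 passed the adjusted threshold. The reversed values were those of KRT18 (−0.34 without Control_1, −0.11 without rs11607019_3 and −0.0215 with the replicate block), KRT8 (−0.10 without Control_1) and LMNA (0.35 without Control_2, 0.22 without rs11607019_1, 0.0003 with upper-quartile scaling and 0.0024 with at least 10 counts in every library). Leaving out 1 library moved NEFH between −1.32 and −0.37, NES between −0.63 and −0.07, VIM between 0.08 and 0.52, KRT8 between −0.10 and 0.55, KRT18 between −0.34 and 0.72, LMNA between −0.28 and 0.35, and LMNB1 between 0.07 and 0.20. Unadjusted p was under 0.05 for NES with the replicate block (0.0269, log2 fold change −0.71), KRT8 and KRT18 without Control_2 (0.0214 and 0.0419) and VIM without rs11607019_2 (0.0360), with adjusted p from 0.4997 to 0.947. NEFH stood at −1.73 in limma-voom. The count of members called was 0 in each alternative. The count of genes called over the whole table was 0 in edgeR's test and 31 with DESeq2 (1210 at an unadjusted p under 0.05, against 1243), and ran from 0 to 4 in the fits that left out 1 library; the cause was not tested.

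With the longest transcript as the length, mean ratios were 3.25 for KRT8 to KRT18 (2.08 with all exons), 0.932 for LMNA to LMNB1 (0.445) and 57.5 for VIM to NES (29.7), and levels were 163 CPM per kilobase for VIM, 109.8 for KRT8, 35.0 for KRT18 and 52.6 for LMNA. Same-numbered libraries had deviations from their group means that correlated at 0.12 and −0.11 over 16310 genes, so the numbers were not taken as pairs; with the replicate block 0 genes were called and NEFH stood at −2.16 with an adjusted p of 0.621. Depth limits NEFH in rs11607019_1, where it rests on 31 counts, and the low markers.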
